A study of Mus musculus with 9 samples.

Results

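A set of 10 genes of antigen processing was followed in the transcriptome of the aging mouse brain. They were listed by name, as genes that load peptides onto MHC class I or that make up the immunoproteasome and its activator, with earlier results of these data known. They were 10 of the 49315 gene rows in the table of read counts, and all 10 were among the 18492 genes that passed the filter on low counts and were tested. The study compared whole brains of young and old male C57BL/6J wild-type mice, in which the transcriptome was sequenced beside proteome and post-translational modification measurements that are not analysed here. The groups used were 5 young mice, labelled 3 months old, and 4 old mice, labelled 33 months old. By the study's methods the replicates are individual animals, and some young mice may be slightly older than the label. No mouse carried an allele other than wild type, and neither group received an agent. Each library was polyA-selected RNA of 1 brain, with 14229259 to 21150439 counted reads. As a tissue check, genes that define neurons, astrocytes and oligodendrocytes were abundant in every brain, with a mean of 2022 CPM (counts scaled by library size) in young mice for Snap25, a synaptic vesicle fusion protein, 2297 for Slc1a2, the astrocytic glutamate transporter, and 2972 for Mbp, a myelin protein.

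Cells display fragments of their own proteins on MHC class I molecules for inspection by CD8 T cells. The proteasome cuts proteins into peptides, the TAP transporter carries the peptides into the endoplasmic reticulum, aminopeptidases trim them there, and tapasin and its relatives load and edit them on class I. Interferons are known to induce many of these genes, among them 3 catalytic subunits that replace their constitutive counterparts in newly assembled particles, which are then called immunoproteasomes. In the healthy brain microglia and endothelium are the cells best known to express this machinery, while neurons express little of it.

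In old brains 7 of the 10 genes were higher at an adjusted p under 0.05 (edgeR quasi-likelihood test, Benjamini-Hochberg adjustment over all 18492 genes), and none was lower. Across all genes tested, 6.09% were higher and 4.89% were lower by that rule, and 11% were called in either direction. All 10 log2 fold changes (old versus young) were above 0, with a median of 0.34, beside a median of -9.2e-05 over all genes tested. The sizes spread widely. Psmb8 (2.49-fold), Tap1 (1.94-fold) and Tap2 (1.69-fold) also passed a log2 fold change of 0.58, and 2.13% of all genes were called higher by both criteria, whereas Psme1, Psme2, Tapbp and Tapbpl rose by 1.18- to 1.31-fold. Psmb9, Psmb10 and Erap1 did not pass the test. On the deposited TPM (limma on log2(TPM + 1)) 2 of 10 were called, Psmb8 and Tap1. That setting called 307 of all 18492 genes higher, where edgeR called 1126. On that scale the median of all genes was shifted by -0.14, and the log2 fold changes were 0.54 for Tap2 (adjusted p = 0.0667), 0.12 for Psme1 (0.698), 0.07 for Psme2 (0.829), 0.08 for Tapbp (0.792) and 0.20 for Tapbpl (0.588). In 7 genes every old mouse had a higher CPM than every young mouse, a pattern shown by 6.5% of all genes, and in those 3 the ages overlapped. Because whole tissue was sequenced, more cells of a type and more RNA per cell cannot be told apart in any of these values.

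**Figure D1:**
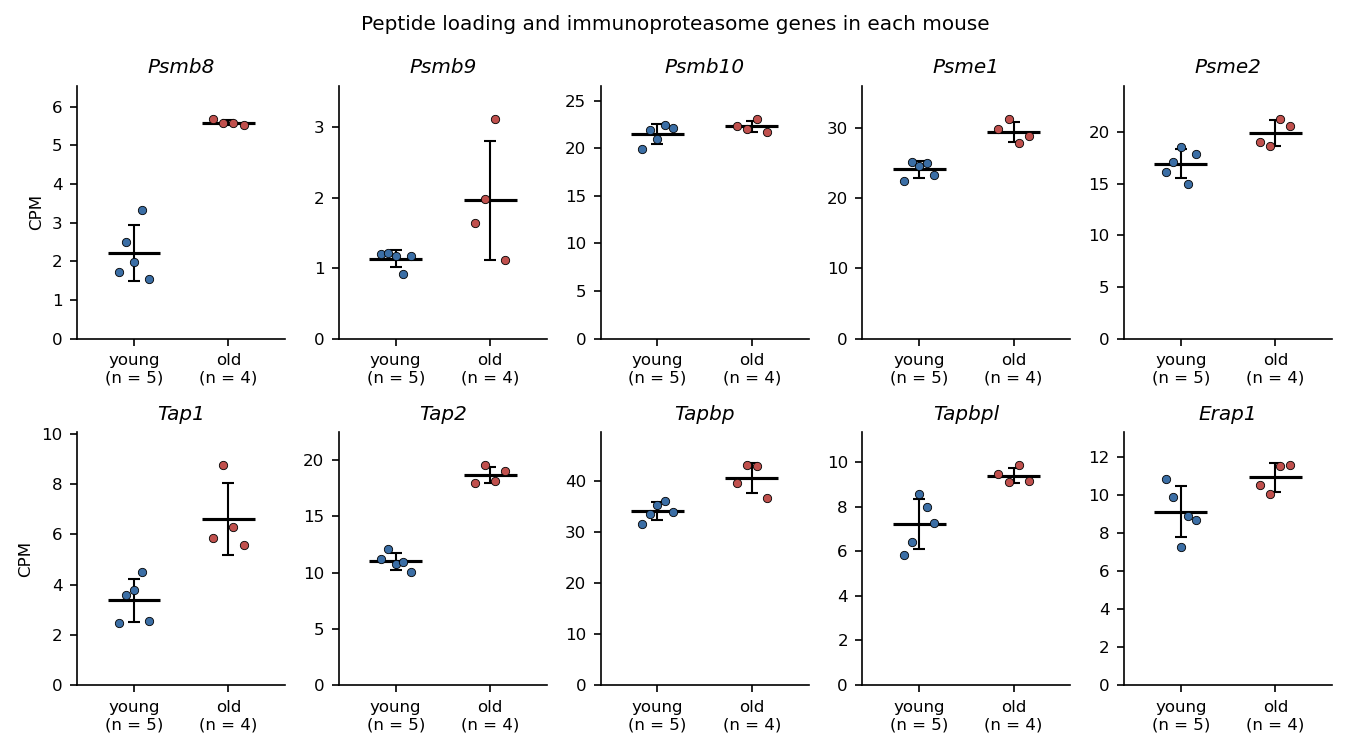
CPM (y axis, from 0) of the 10 genes in each young (blue, n = 5) and old (red, n = 4) mouse, with the mean as a horizontal line and the SD as a bar. The ages do not overlap for Psmb8, Tap1, Tap2, Psme1, Psme2, Tapbp and Tapbpl, and overlap for Psmb9, Psmb10 and Erap1.

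The genes include 2 clusters. Psmb9, Tap1, Psmb8 and Tap2 sit within 34.3 kb of the MHC class II region, at chr17:34181987-34216321 (GRCm38, GENCODE M21), and Psme1 and Psme2 within 12991 bases at chr14:55578123-55591113. Psmb9 and Tap1 are transcribed away from each other, and the RefSeq start sites (GRCm38.p6) leave 225 bases between them, at chr17:34187331-34187555. That interval is shown because a pair of genes with different outcomes in the test is transcribed from it. It is written on the plus strand, 5′ to 3′, with Psmb9 to its left and Tap1 to its right, and has no capitals because none of the motifs searched matched in it.
Tap1 and Psmb9: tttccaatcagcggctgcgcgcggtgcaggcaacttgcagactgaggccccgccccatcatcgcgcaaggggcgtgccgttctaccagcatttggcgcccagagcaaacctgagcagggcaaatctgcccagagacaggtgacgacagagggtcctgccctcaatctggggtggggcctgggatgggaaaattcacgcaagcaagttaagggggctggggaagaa
Promoters were searched on both strands, from 250 bases before to 50 after each RefSeq start site, for 4 motifs: GAAANNGAA (core of the interferon-stimulated response element), TTCNNNGAA (gamma-activated site, a palindromic STAT motif), GGGNNTTTC (NF-kB core) and TGACNNNGC (core of the antioxidant response element). The RefSeq table matched 8 of the 10 genes (no entry for Tap2 or Tapbpl). The response element core occurred in 2 of the 8, Erap1 and Psme1, beside 9.76% of the 27025 genes in the table. The gamma-activated site occurred in 1 of 8, Psmb8, beside 9.55% of genes. The NF-kB core and the antioxidant core occurred in 0 of 8, beside 5.06% and 14% of genes. Counted over its 32851 promoters, since a gene can have several, the shares were 8.56%, 8.3%, 4.36% and 12.4% in the order of the motifs. Of 33 other proteasome genes with a promoter entry, 6 held the response element core, 2 the gamma-activated site, 1 the NF-kB core and 6 the antioxidant core. The matched stretches are shown 5′ to 3′ on the plus strand, which is the coding strand of all 3 genes, with the matched letters in capitals. They lie at chr17:34198065-34198164 for Psmb8, chr13:74639829-74639858 for Erap1 and chr14:55578484-55578513 for Psme1. In Erap1 overlapping matches run together in the capitals. These are matches of letters and not measured binding.
Psmb8: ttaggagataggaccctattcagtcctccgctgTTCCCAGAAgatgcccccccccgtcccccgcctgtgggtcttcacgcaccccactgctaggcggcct
Erap1: ccctgccggtccaccTTCACTTTCACTTTC
Psme1: tgcaggtttcgagctgtgctTTCGCTTTCc

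Among the 3 immunoproteasome catalytic subunits, Psmb8 rose in old brains and Psmb10 did not pass the test. Psmb8 encodes β5i, the chymotrypsin-like subunit that takes the place of Psmb5. Its level was 1.72, 2.49, 1.99, 3.33 and 1.54 CPM in young replicates 1 to 5, and 5.68, 5.57, 5.58 and 5.52 CPM in old replicates 1, 3, 4 and 5. The old mice lay close together in CPM and far above the young, of which replicate 4 was the highest. In TPM the same old mice ran from 4.17 to 5.26. At 79 to 107 reads per old mouse, counting error is larger than their spread in CPM, so their closeness is not read further. The mean went from 2.22 ± 0.72 (SD, n = 5) to 5.59 ± 0.07 CPM (n = 4), with a log2 fold change of 1.31 (SE 0.18, adjusted p = 0.000213).

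Psmb9, which encodes β1i and shares its start interval with Tap1 (sequence above), was the least certain. It had 1.20, 1.22, 1.17, 0.918 and 1.17 CPM in young replicates 1 to 5, and 1.65, 1.97, 3.12 and 1.12 CPM in old replicates 1, 3, 4 and 5. Old replicate 4 was the highest and old replicate 5 lay inside the young range, so the ages overlapped. The log2 fold change was 0.80 (SE 0.26, adjusted p = 0.0566), on 17 to 57 reads per mouse. It was 0.47 (adjusted p = 0.257) without old replicate 4 and 0.99 (adjusted p = 0.0175) without old replicate 5, and the adjusted p was 0.0157 when no filter on low counts was applied. On log2(TPM + 1) and log2(TPM + 0.1) the log2 fold change was 0.27 and 0.49 (limma, adjusted p up to 0.419). Old replicate 4 also had the highest summed level of blood genes (409 CPM) and of B and plasma cell genes (38.7 CPM), and their part in its Psmb9 level was not tested.

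Psmb10, which encodes β2i, the trypsin-like subunit, had 19.96 to 22.5 CPM in young mice (median 21.9) and 21.7 to 23.1 CPM in old mice. Its ages overlapped in part, with 2 young mice below every old mouse and 1 old mouse above every young mouse. The log2 fold change was 0.05 (SE 0.06, adjusted p = 0.61), and its 95% interval in fold was 0.96 to 1.12. To compare the subunits with each other, 5 ratios of TPM between pairs of members were tested by an exact two-sided permutation test over all splits of the 9 mice, with pairs chosen after their values were seen and p adjusted over the 5. The adjustment does not cover how the pairs were chosen, so these p are descriptive. Psmb8 relative to Psmb10 was 2.53-fold higher in old mice, without overlap (exact p = 0.00794, the smallest that these splits can give, adjusted p = 0.0397). Psmb8 relative to Psmb9 differed by 1.61-fold (exact p = 0.135, adjusted p = 0.225) and Psmb9 relative to Psmb10 by 1.56-fold (exact p = 0.0556, adjusted p = 0.139), both with overlap.

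The constitutive counterparts did not pass the test. Psmb5 (β5) went from 58.3 to 56.6 CPM (adjusted p = 0.611), Psmb6 (β1) from 64.7 to 63.5 CPM (adjusted p = 0.792), and Psmb7 (β2) from 77.7 to 72.1 CPM (log2 fold change -0.11, adjusted p = 0.0832). Every old mouse was below every young mouse for Psmb7, a pattern shown by 6.08% of all genes. The share of each immunosubunit in its pair was taken from TPM, which divides by transcript length, and a share within a library does not depend on how the library was scaled. It is a share of RNA, not of assembled particles. Psmb8 made up 0.966%, 1.26%, 1.09%, 1.76% and 0.865% of Psmb8 plus Psmb5 in young replicates 1 to 5, and 3.03%, 3.25%, 3.08% and 2.87% in old replicates 1, 3, 4 and 5. The old shares were all above the young. The mean share rose from 1.19% ± 0.35 (SD, n = 5) to 3.06% ± 0.16 (n = 4), a 2.7-fold higher ratio (exact permutation test, p = 0.00794, adjusted over the 3 pairs p = 0.0238).

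Psmb9 made up 0.89% ± 0.09 of Psmb9 plus Psmb6 in young and 1.55% ± 0.61 in old mice, with overlap (exact p = 0.0317, adjusted p = 0.0317). Psmb10 was far closer to its counterpart in level, at 35.7% ± 1.2 of Psmb10 plus Psmb7 in young and 38.3% ± 0.5 in old mice, a 1.12-fold higher ratio without overlap (exact p = 0.0159, adjusted p = 0.0239). Relative to the 11 non-catalytic 20S core subunits in place of Psmb7, the log2 ratio of Psmb10 differed by 0.06 (exact p = 0.167). The Psmb9 ratio had p under 0.05 in 1 of the 9 tests that left out a mouse, the test without old replicate 5. The shares depend on the transcript length assumed. With the principal protein-coding transcript in place of all exons, a choice made after seeing the data, Psmb8 went from 2.04% to 5.18%, Psmb9 from 1.03% to 1.78% and Psmb10 from 19.7% to 21.5%.

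**Figure D2:**
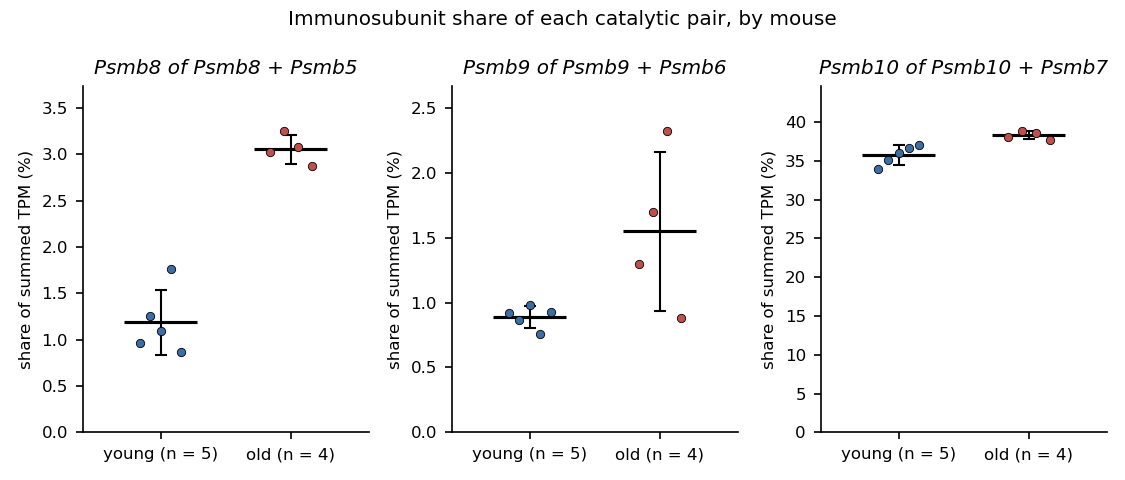
Share of each immunosubunit in the summed TPM of the pair it forms with its constitutive counterpart (y axis in percent, from 0), in each young (blue, n = 5) and old (red, n = 4) mouse, with the mean and SD. The Psmb8 share went from 1.19% to 3.06% and the Psmb10 share from 35.7% to 38.3%, both without overlap, and the Psmb9 share overlapped.

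The other proteasome genes listed were not called. Of 40 such genes outside the 10, which included the 3 constitutive catalytic subunits, 0 passed an adjusted p of 0.05 by edgeR, by DESeq2 or by limma, and 3 had an unadjusted p under 0.05 in the edgeR fit. Their log2 fold changes ran from -0.12 to 0.10 with a median of 0.0075, and their median SE was 0.043. In the 20S core, 0 of 11 other subunits was called, and Psmb4, its most abundant, went from 90.3 to 89.3 CPM. In the 19S particle, which recognizes and unfolds ubiquitylated proteins, 0 of 18 was called, and Psmd2, a scaffold subunit, went from 199 to 187 CPM (adjusted p = 0.144). Of 8 genes for other activators, an inhibitor and assembly chaperones 0 was called, among them Psme3, the nuclear activator PA28γ, at 97.7 and 100.5 CPM.

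Both subunits of the 11S activator PA28, a ring that opens the gate of the 20S core, were modestly higher in old brains. Psme1 (PA28α) had 22.4, 25.1, 24.5, 25.02 and 23.2 CPM in young replicates 1 to 5, and 29.8, 31.2, 27.8 and 28.9 CPM in old replicates 1, 3, 4 and 5. Psme2 (PA28β) had 16.1, 17.1, 18.5, 15.02 and 17.8 CPM in the young, and 19.1, 18.7, 21.3 and 20.6 CPM in the old. Neither gene overlapped between ages, though for Psme2 old replicate 3 and young replicate 3 were nearly equal. The log2 fold change was 0.29 (SE 0.06, adjusted p = 0.00358) for Psme1 and 0.24 (SE 0.07, adjusted p = 0.04) for Psme2. Psme1 relative to Psme2 differed by 1.04-fold between ages (exact p = 0.627, adjusted p = 0.627).

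The Psme2 call was marginal. DESeq2 gave an adjusted p of 0.0551, limma on the deposited normalized counts gave 0.0526, and the adjusted p was over 0.05 in 5 of 9 fits that left out a mouse (without young replicate 1, 2 or 4 or old replicate 4 or 5, up to 0.117). Reads of Psme2 may be shared with its retrogene Psme2b, which held 12 to 31 reads per mouse, and with the counts of both summed, an alternative added after seeing the data, the log2 fold change was 0.24 (adjusted p = 0.0221).

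The transporter subunits rose together. TAP1 and TAP2 form the heterodimer that pumps peptides from the cytosol into the endoplasmic reticulum. Tap1 had 2.46, 3.60, 3.78, 4.49 and 2.53 CPM in young replicates 1 to 5, and 5.84, 8.74, 6.29 and 5.58 CPM in old replicates 1, 3, 4 and 5. Tap2 had 11.2, 12.1, 10.7, 10.97 and 10.1 CPM in the young, and 17.95, 19.5, 18.2 and 19.02 CPM in the old. Old replicate 3 was the highest for both genes, young replicate 4 was the highest of the young for Tap1 only, and neither gene overlapped. Tap1 had a log2 fold change of 0.96 (SE 0.18, adjusted p = 0.00355). Tap2 had 0.76 (SE 0.07, adjusted p = 7.77e-06), and it had the lowest p of the 10 genes. Tap1 relative to Psmb9, its divergent neighbour, differed by 1.22-fold between ages (exact p = 0.429, adjusted p = 0.536).

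Tapasin and its relative had smaller log2 fold changes than the transporter subunits, a difference that was not tested. Tapbp encodes tapasin, which holds class I at the transporter, and Tapbpl encodes TAPBPR, a peptide editor that works apart from it. Tapbp had 31.6 to 36.2 CPM in young mice (median 34.0) and 36.7 to 43.1 CPM in old mice. Tapbpl had 5.85, 6.42, 8.59, 7.97 and 7.29 CPM in young replicates 1 to 5, and 9.46, 9.10, 9.85 and 9.16 CPM in old replicates 1, 3, 4 and 5. For both genes the lowest old mouse stood just above the highest young mouse. The log2 fold change was 0.25 (SE 0.06, adjusted p = 0.00925) for Tapbp and 0.38 (SE 0.11, adjusted p = 0.0298) for Tapbpl. The adjusted p of Tapbpl was over 0.05 in 6 of 9 fits that left out a mouse (without young replicate 1, 2 or 5 or old replicate 1, 4 or 5, up to 0.0758).

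Erap1, the aminopeptidase that trims peptides to the length class I holds, did not pass the test. It had 10.9, 9.90, 7.28, 8.89 and 8.71 CPM in young replicates 1 to 5, and 10.5, 10.1, 11.6 and 11.6 CPM in old replicates 1, 3, 4 and 5. Young replicate 1 was above 2 of the old mice. The log2 fold change was 0.25 (SE 0.10, unadjusted p = 0.0254, adjusted p = 0.128), close in size to that of Tapbp with a larger error. Of 9 other peptidases and peptide transporters, 2 were lower and 0 higher: Abcb9, a lysosomal peptide transporter related to TAP (50.2 to 40.6 CPM, log2 fold change -0.31, adjusted p = 0.0063), and Blmh, a cytosolic peptidase (48.4 to 43.9 CPM, log2 fold change -0.14, adjusted p = 0.0365). Blmh lost that call without young replicate 1, 4 or 5 or old replicate 1, 3 or 4 (adjusted p up to 0.11). Of 4 general chaperones that also serve class I folding, 0 was called by edgeR or DESeq2 and 2 had an unadjusted p under 0.05. All 4 had log2 fold changes below 0, and calnexin (Canx), the most abundant, had -0.10 (adjusted p = 0.201).

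Levels per length placed the genes in order of RNA abundance. On a scale of CPM per kb of the principal transcript, young brains held 81.1 ± 5.3 of Psmb6, 67.0 ± 2.1 of Psmb7 and 64.9 ± 2.9 of Psmb5. The members followed, with Psme1 at 21.6 ± 1.1, Psme2 at 17.6 ± 1.5, Psmb10 at 16.4 ± 0.8 and Tapbp at 11.8 ± 0.6. Tap2 (3.2 ± 0.22), Tapbpl (3.07 ± 0.47), Erap1 (1.62 ± 0.24), Psmb8 (1.36 ± 0.44), Tap1 (1.14 ± 0.29) and Psmb9 (0.84 ± 0.09) were the scarcest. Psmb7 and Psmb5, Psme2 and Psmb10, Tap2 and Tapbpl, and each neighbouring pair from Erap1 down to Psmb9 lay within their SDs of each other. In old brains Psmb8 (3.43 ± 0.04) and Tap1 (2.24 ± 0.49) stood above Erap1 (1.94 ± 0.13) in mean, and Tap1 and Erap1 lay within their SDs. This order depends on the length used. In the deposited TPM the old medians were 6.56 for Erap1, 4.75 for Psmb8 and 2.65 for Tap1, and the young medians were 176 for Psmb5 and 95.9 for Psmb6, and 31.8 for Psmb10 and 27.5 for Psme1. By CPM per kb, the 3 members with the largest called rises were all among the lower 6 in young brains, and Psmb8 in old brains was still far below Psmb5 (62.9 ± 3.2).

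Class I molecules and some regulators rose beside these genes. All 3 class I genes listed were higher in old mice, without overlap: H2-K1 (24.1 to 57.4 CPM, log2 fold change 1.24, SE 0.09, adjusted p = 7.77e-06), H2-D1 (62.0 to 114 CPM, 0.88, SE 0.09, adjusted p = 0.000432) and the light chain B2m (56.2 to 107 CPM, 0.93, SE 0.15, adjusted p = 0.0069). Reads of H2-K1 and H2-D1, which are close paralogs, may be divided between them. Of 10 regulators, 2 were higher and 0 lower. Nlrc5, the class I transactivator, had a log2 fold change of 1.57 (1.47 to 4.42 CPM, SE 0.25, adjusted p = 0.00134), the largest of the 10. Irf9, the DNA-binding part of the complex that recognizes the interferon-stimulated response element, had 0.36 (16.2 to 20.9 CPM, SE 0.08, adjusted p = 0.00981).

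Of the 10 regulators 6 had an unadjusted p under 0.05, and DESeq2 called 3, Irf8 besides Nlrc5 and Irf9. The regulators below did not pass the edgeR test and are named after their values were seen. Irf8, a factor of microglia and other myeloid cells, had 5.50 and 9.59 CPM (log2 fold change 0.78, SE 0.26, adjusted p = 0.0898), with overlap, and without young replicate 4 its log2 fold change was 1.13 (adjusted p = 3.35e-06). Irf2 had 27.0 and 31.1 CPM (0.20, SE 0.06, adjusted p = 0.0526), with every old mouse above every young mouse. It was called in 2 fits that left out a mouse (adjusted p down to 0.0434) and in 2 other alternatives. Stat2 had 41.3 and 46.9 CPM (0.18, SE 0.06, adjusted p = 0.071) and was called in 1 other alternative. Irf1, known to activate several of the 10 genes, had 6.29 and 8.18 CPM (log2 fold change 0.37, SE 0.15, adjusted p = 0.117, and 0.0226 without young replicate 4). In the RFX factors that carry NLRC5 to DNA (Rfx5, Rfxap, Rfxank), and in Nfe2l1, which drives constitutive proteasome genes, the log2 fold changes lay between -0.04 and 0.07 and none was called.

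**Figure D3:**
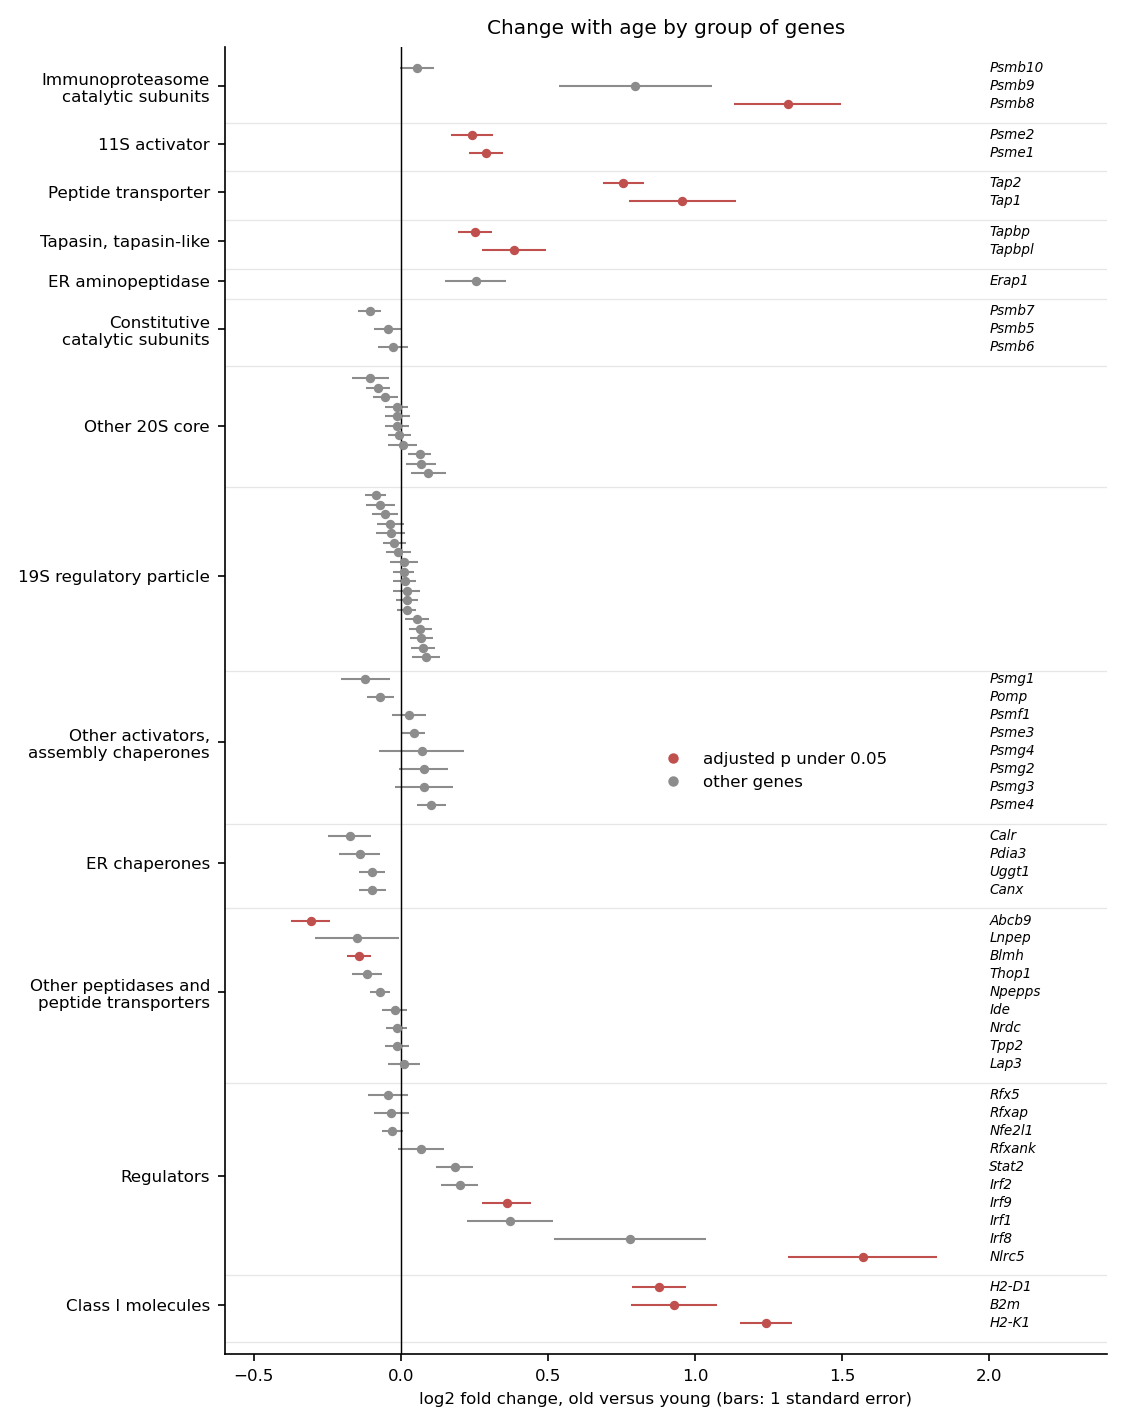
Log2 fold change of old versus young (x axis, points) with 1 SE (bars) for the 10 members in 5 groups, 40 other proteasome genes, ER chaperones, other peptidases and transporters, regulators and class I molecules. Red marks an adjusted p under 0.05 (edgeR): 7 of 10 members, 0 of 40 other proteasome genes, 2 of 10 regulators and 3 of 3 class I genes to the right of 0, and Abcb9 and Blmh to the left.

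Neighbouring genes were read to see which changes the clusters shared. Of 3 other tested genes within 50 kb of the chr17 cluster, 2 class II genes were higher, H2-DMb1 (log2 fold change 0.86, SE 0.23, adjusted p = 0.021) and H2-Ab1 (0.83, SE 0.21, adjusted p = 0.0159), and H2-DMa was at 0.08 (SE 0.11, adjusted p = 0.71). Of 9 other tested genes within 50 kb of the chr14 cluster, 2 were higher and 1 lower. The higher ones were Irf9 (above) and Rnf31, a subunit of the linear ubiquitin ligase (0.20, SE 0.06, adjusted p = 0.0302). Emc9, which lies between Psme1 and Psme2 and encodes a subunit of a membrane insertase, was lower (-0.23, SE 0.06, adjusted p = 0.0155). Exons of Emc9 and Psme1 overlap by 14 bases on opposite strands, those of Psmb9 and Tap1 by 212 bases, and those of Erap1 and Cast by 834 bases. Whether counting used strand is not stated for these libraries, so reads in such overlaps cannot be told apart. Exons of Tapbp overlap those of Zbtb22 by 149 bases on the same strand, where strand would not separate them, and Zbtb22 had 414 to 646 reads per mouse (log2 fold change 0.09, adjusted p = 0.393).

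**Figure D4:**
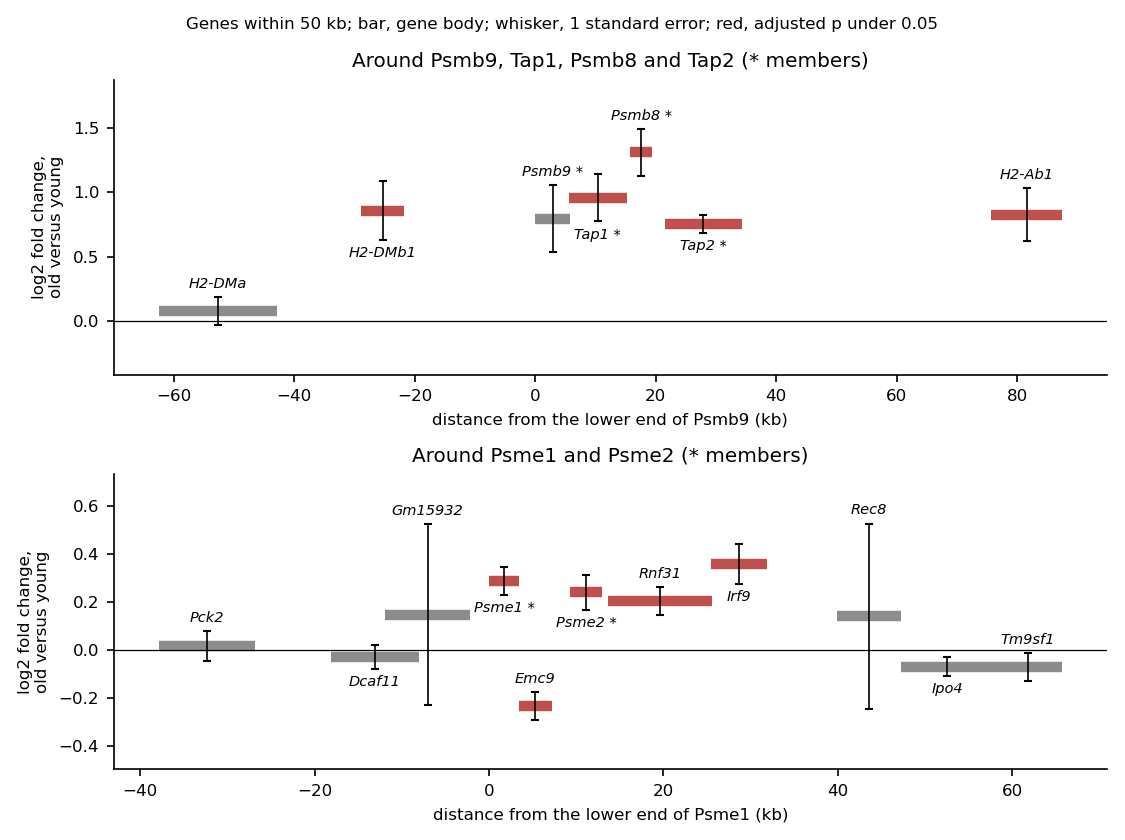
Log2 fold change of old versus young (y axis, 1 SE as whiskers) of tested genes within 50 kb of the 2 clusters, drawn as bars over their gene bodies by distance in kb from the lower end of Psmb9 (top) or Psme1 (bottom), with asterisks on the members and red for an adjusted p under 0.05. All but H2-DMa in the top panel lie between 0.76 and 1.31, and Emc9 at -0.23 lies between Psme1 and Psme2.

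Markers of cell types moved in part with age. The 9 homeostatic microglial genes summed to 186.0, 202, 189, 228 and 178 CPM in young replicates 1 to 5, and to 235, 243, 223 and 277 CPM in old replicates 1, 3, 4 and 5. Young replicate 4, the highest of the young for Psmb8 and Tap1, was also the highest here and stood above 1 old mouse. Tmem119 (log2 fold change 0.53, adjusted p = 0.000369) and Selplg (0.45, adjusted p = 0.000463) were called, 2 of 9. All 9 had log2 fold changes above 0 and 6 had an unadjusted p under 0.05. Csf1r, the most abundant, had 0.18 (adjusted p = 0.481), with overlap. With a mouse left out it ranged from 0.14 to 0.33 and was called in 1 fit (adjusted p = 0.000184). Sall1 had the largest log2 fold change of the 9 (0.68, adjusted p = 0.168), with overlap. The 8 endothelial genes had a mean sum of 258 ± 8 CPM in the young and 305 ± 21 CPM in the old, with 4 called, all higher: Ly6c1 (0.94, adjusted p = 7.15e-05), Pecam1 (0.38, adjusted p = 0.000541), Cdh5 (0.26, adjusted p = 0.0209) and Flt1 (0.25, adjusted p = 0.0362), the most abundant. Of the 8, 6 had log2 fold changes above 0, and the others were Kdr (-0.30, adjusted p = 0.0772) and Cldn5 (-0.14, adjusted p = 0.402). Kdr was called lower in 2 fits that left out a mouse (adjusted p down to 0.00938). The mean sums of these lists were 1.24 and 1.18 times as high in old mice. Single genes weighed in the sums, as Sall1 went from 25.1 to 40.0 CPM and Ly6c1 from 22.2 to 42.6 CPM. The mean CPM of the members was 2.52 (Psmb8), 1.96 (Tap1), 1.73 (Psmb9), 1.69 (Tap2), 1.3 (Tapbpl), 1.22 (Psme1), 1.2 (Erap1), 1.19 (Tapbp), 1.18 (Psme2) and 1.04 (Psmb10) times as high. The part of microglia and endothelium in the rises of the 10 genes was not tested.

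Of the 6 astrocyte genes 0 was called by edgeR (2 at an unadjusted p under 0.05, and 1 higher and 1 lower by DESeq2), and Slc1a2, the most abundant, had a log2 fold change of 0.01. Of 6 neuronal genes Map2 alone was called (-0.14, adjusted p = 0.0259), with Snap25 the most abundant and the sum at 5643 ± 235 and 5651 ± 258 CPM. Of 4 oligodendrocyte genes, Mbp, the most abundant, was higher (0.26, adjusted p = 0.0194) and Mog lower (-0.22, adjusted p = 0.0259), and the sum was 5220 ± 398 and 5678 ± 559 CPM. All 5 blood genes had log2 fold changes above 0 and 3 were called, Hbb-bs, the most abundant (log2 fold change 1.31, adjusted p = 0.0466), Hba-a1 (1.35, adjusted p = 0.0454) and Alas2 (1.11, adjusted p = 0.0413), with sums of 98.9 ± 11.9 and 242.1 ± 124.6 CPM. In the 9 fits that left out a mouse, Hbb-bs and Hba-a1 each lost the call in 8, Flt1 in 7, Alas2 and Mog in 5, Map2 in 4, Cdh5 in 3 and Mbp in 1.

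Lymphocyte markers ranged from a few reads to levels like those of the members. Of 9 T and NK cell genes, Cd4 and Trac were abundant enough to test and 0 was called (0 also at an unadjusted p under 0.05 and by DESeq2), and the sum was 7.49 ± 1.05 and 8.24 ± 0.53 CPM, with Cd4 the most abundant. Of the CD3 chains of the T cell receptor, Cd3e had 1 to 7 reads per mouse in the young and 2 to 6 in the old, Cd3d 0 to 2 and 2 to 5, and Cd3g 0 to 1 and 2 to 4. Cd8a had 0 to 3 reads in the young and 5 to 16 in the old, Cd8b1 0 to 2 and 2 to 7, and Nkg7 0 to 2 and 1 to 8. Cd3g and Cd8a did not overlap between ages, at counts too low to be tested. Of 6 B and plasma cell genes 3 could be tested and 1 was higher, Igkc, the kappa light chain, with 1 to 6 reads in the young and 15, 43, 65 and 222 in the old (adjusted p = 0.0259, and over 0.05 in 6 of 9 fits that left out a mouse, up to 0.0654). The list summed to 18.3 ± 2.3 CPM in the young and 22.9 ± 11.2 CPM in the old. Ighm was its most abundant gene, at 16.9 and 16.4 CPM, and Ms4a1 had 0 to 4 reads per mouse. The part of lymphocytes and blood in the levels of the 10 genes was not tested.

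Genes with the most similar pattern over the 9 mice were found for Psmb8, Tap1 and Psme2, as the smallest mean absolute difference in log2 CPM after centring on the young mean, among 14494 genes. They were chosen for their likeness, so their values are a description. Psmb8 was most like Osmr, the oncostatin M receptor (mean difference 0.148), Tfcp2l1, a transcription factor (0.164), and Parp14, an ADP-ribosyltransferase (0.179). Tap1 was most like Cmklr1, a chemerin receptor (0.141), Lgals9, which encodes galectin-9 (0.147), and Ddx58, which encodes the RNA sensor RIG-I (0.15). Psme2 was most like Phgdh, an enzyme of serine synthesis (0.0398), Pcna, the sliding clamp of DNA replication (0.0431), and Cib1, a calcium-binding protein (0.0487). Osmr went from 5.45 to 13.9 CPM, Lgals9 from 3.92 to 8.05 CPM and Pcna from 33.5 to 39.7 CPM.

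Mice of an age also differed from each other, most in the genes with few reads. Relative to the mean of its age, young replicate 4 was 0.61 higher in log2 CPM for Psmb8 and 0.27 lower for Psmb9, with a median over the 10 of 0.06. Young replicate 1 was lowest for Tap1 (-0.40) and highest for Erap1 (0.26). Old replicate 3 was highest for Tap1 (0.42), old replicate 4 for Psmb9 (0.72), and old replicate 5 was lowest for Psmb9 (-0.67). Young replicate 2 was above the mean of its age in 8 of the 10 genes and young replicate 1 in 3.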

How the data were processed

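PolyA-selected RNA of whole brains (young, 5 mice; old, 4 mice) was sequenced and processed by the authors' provider, who trimmed and aligned reads to GRCm38 and counted unique reads on exons. The deposited tables hold raw counts per gene, TPM and DESeq2-normalized counts (count signal divided by 1 size factor per library, by the authors, for 17994 genes). The submitters' processing notes name mm10 and DESeq2. Per table, 1 column of values, headed as an old replicate, matched no sample described here and was not used. Of 49315 identifiers, 49056 were given symbols from GENCODE M21 (the files' build). The 10 members and the other gene lists were chosen with earlier results of these data known, and some genes of the lists are not reported here.

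Counts were filtered (filterByExpr, minimum count 10), scaled by TMM and tested with the robust quasi-likelihood test of edgeR 4.0.16 in R 4.3.3, old versus young without covariates, with Benjamini-Hochberg adjustment over 18492 genes. CPM are TMM-scaled. Errors are SDs over mice, or SEs of log2 fold changes, and 95% intervals were taken from the SE. Ratios of TPM were tested with an exact two-sided permutation test of the mean log2 ratio (scipy 1.17.1). Alternatives were DESeq2 1.42.0, limma 3.58.1 on TPM and on normalized counts, other size factors and filters, a replicate block, and each mouse left out.

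Named genes were the 10 members, the 3 constitutive catalytic subunits and, in each other list, up to 4 genes with an adjusted p under 0.05 and the lowest p or, where none passed, the most abundant. Others (further regulators, Sall1, Kdr, Cldn5, lymphocyte genes and the most abundant gene of each marker list) were named after their values were seen. Libraries of an age differed by more than sampling noise (chi-square per degree of freedom 4.04 to 21.8). The fit was tested on simulated data. Promoter sequences are from RefSeq (GRCm38.p6).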

Additional observations from a re-analysis of the deposited data

Results flagged for a closer look

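Of 32 groups of values looked at (each of the members, constitutive subunits and shares within an age), 1 had a mouse far from the others, where chance alone gives about 1.6. Psmb9 in young replicate 4 had a log2 CPM of 0.05, below the other young mice at 0.36 to 0.41, and the gap to its nearest neighbour was 0.853 of the range of the young group. That mouse held 19 Psmb9 reads, as many as young replicate 5, in the largest library. The same mouse had the highest Psmb8 and Tap1 levels of the young group.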

How the results depend on the processing

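Psmb8 and Tap1 kept their direction and their adjusted p under 0.05 in every alternative run, including each mouse left out (log2 fold changes of 0.91 to 1.52 for Psmb8 and 0.54 to 1.09 for Tap1). The count of members higher in old mice was 7, and 5 to 7 with a mouse left out. Over all genes tested, 1126 were called higher, and 879 to 1182 with a mouse left out. With limma on log2(TPM + 1) or log2(TPM + 0.1) the member count was 2, beside 307 and 304 of all genes. With the former 1 member passed the fold threshold in place of 3 (3 to 4 with a mouse left out), beside 217 of all genes in place of 394. On those TPM scales the median of all genes shifted by -0.14 and -0.16, and Tap2 had adjusted p of 0.0667 and 0.0528. Psme1, Psme2, Tapbp, Tapbpl, Irf9, Abcb9 and Blmh had adjusted p above 0.05 on both, in unchanged directions, and so did the marker genes Tmem119, Selplg, Pecam1, Cdh5, Flt1, Map2, Mbp and Mog. With no filter on low counts Alas2, Hba-a1 and Hbb-bs lost their calls. Scaled by library size alone, Psme2 (adjusted p = 0.0518) and Blmh (0.0513) lost theirs. On both TPM scales Psmb10 turned to -0.11 (0.03 and 0.05 above the shift), Psme3 to -0.12 and Slc1a2 to -0.15. Psme4 turned to -0.063 and -0.066 on the same scales. The cause was not tested. The count of other proteasome genes called was 0 in all runs.

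Small differences near 0 changed sign: Psmb6 ranged from -0.057 to 0.012 with a mouse left out, Psmb4 from -0.031 to 0.012, Slc1a2 from -0.014 to 0.049, Ighm from -0.27 to 0.11, and Psme1 relative to Psme2 ranged from -0.0051 to 0.11. Leaving out a mouse gave log2 ratios of 0.50 to 0.97 for Psmb9 relative to Psmb6 (exact p of 0.0179 to 0.114; with fewer mice the smallest p is larger) and of 0.41 to 0.87 for Psmb9 relative to Psmb10 (0.0179 without old replicate 5). Psmb10 relative to the other 20S core subunits was at 0.058.

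Correlations of same-numbered mice were 0.17, -0.12, 0.09 and -0.02. With 4 such pairs, these values cannot settle whether mice of a number share more than the number. With the replicate block 5 members were higher, beside 1039 of all 18492 genes, with Psme2 at an adjusted p of 0.0751 and Tapbpl at 0.0665. Blmh, Mbp, Hba-a1 and Hbb-bs lost their calls in that fit. Psmb6 was at 0.0083 and Psmb4 at 0.0091. Paired log2 ratios were 1.47 (Psmb8 to Psmb5), 0.72 (Psmb9 to Psmb6) and 0.15 (Psmb10 to Psmb7), with exact p of 0.125, 0.25 and 0.125; with 4 pairs no p can go below 0.125. Replicate 1 was the number whose young and old mice each correlated best with their own number.

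Depth limits Psmb9 most, at 17 to 57 reads per mouse; counting error alone is large there. With 5 and 4 mice the median SE over all genes was 0.085. For Psmb10, with a log2 fold change of 0.053 and an SE of 0.057, the change cannot be told from 0. In the simulated data, 58% of 200 genes given an absolute log2 fold change of 0.58 were called.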
